A study of Mus musculus with 11 samples.

Results

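The 8 genes described here, Btn1a1, Xdh, Plin2, Plin3, Cidea, Mfge8, Muc1 and Muc15, encode proteins that coat the milk lipid droplet or surround it on its release from the mammary epithelial cell. They were taken from a list of names, with no threshold on a measured value, though earlier results of these data were known when the list was chosen. All 8 were among the 22196 genes obtained and among the 12716 genes tested. The RNA of 11 samples came from inguinal mammary glands of mice kept on a normal chow diet. The 6 knockout samples had the genotype Tsc1-fl/fl; Adipoq-Cre-Tg/+ and the 5 wild-type samples Tsc1-fl/fl; Adipoq-Cre-+/+, so that both groups carried floxed Tsc1 and the groups differed in the Cre transgene. All samples carried the same postnatal day label (PND16.5) and were taken 16 days after delivery. Adipoq drives Cre in adipocytes, so the milk-secreting epithelium was not the targeted cell type. The labels name no litter, cage or collection date and do not tell whether the mice were nursing. They also do not state that each replicate was a separate animal, and p-values measure the spread between these samples.

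Milk fat leaves the cell by an unusual route. Triglyceride droplets form at the endoplasmic reticulum, take up coat proteins of the perilipin family, grow by fusion in which CIDE proteins take part, and move to the apical surface. There they are wrapped in plasma membrane, in a process that depends on butyrophilin (Btn1a1) and xanthine dehydrogenase (Xdh), and are shed as globules whose outer layer carries Mfge8 and the mucins Muc1 and Muc15.

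Depth was 25817975 to 37894237 estimated reads per library. The targeted gene, Tsc1, had a mean of 10.1 CPM ± 1.33 (SD, n = 6) in the knockout and of 10.7 ± 1.11 (SD, n = 5) in the wild-type group, where CPM is the estimated read count scaled to library size with edgeR's TMM factors. Its values overlapped, on 234 to 392 reads per library, and its log2 difference was -0.09 ± 0.11 (SE), with an edgeR adjusted p of 0.772. The deletion is therefore not shown by Tsc1 in these data, and which exons were floxed is not given in the sources used here. The 6 markers of secretory epithelium, milk protein genes such as Csn2 and Wap, summed to between 341380 and 594729 CPM, and all had reads in every library. Summed markers of luminal epithelium and myoepithelium lay between 363 and 971 CPM. The sum of 9 adipocyte markers was higher in every knockout library, at 1260 to 1790 CPM, than in any wild-type library, at 760 to 1118 CPM. Cfd, or adipsin, made up most of that sum, with means of 905 and 527 CPM, and Lep was lower on average in knockout glands, at 0.650 against 1.17 CPM. In 1 knockout library (number 1) skeletal muscle markers summed to 2037 CPM, against at most 170 CPM in the others, and B cell markers reached 62.1 and 82.9 CPM in wild-type libraries 2 and 5, against at most 18.4 CPM elsewhere. Fewer cells of a type and less RNA per cell cannot be told apart in whole-gland RNA. Over all genes tested, 7 passed edgeR's threshold of 0.05 on the adjusted p, which is 0.0550%, and 1576 had an unadjusted p under it, which is 12.4%.

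All 8 genes were well expressed, and together they held 1.34% of the reads. Their share was 1.36% ± 0.144 (SD, n = 6) in knockout glands against 1.31% ± 0.0805 (SD, n = 5) in the wild type, with overlapping values. Compared per coding length as TPM, the transcript abundance scaled to 1 total in every library, Cidea had the highest level, with a mean of 2064 TPM ± 169 (SD, n = 11) and place 21 among all genes. Mfge8 followed at 1595 TPM ± 286 and place 23, and was below Cidea in 10 of 11 libraries. Btn1a1, with means of 498 TPM ± 93.1 (SD, n = 6) in knockout glands and 420 ± 39.8 (SD, n = 5) in the wild type, and Plin2, with 481 ± 72.3 and 399 ± 64.8, could not be ordered, since Btn1a1 was the higher in 4 of 11 libraries. Xdh came next at 339 TPM ± 61.8, below Plin2 in 10 of 11 libraries.

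The other 3 genes were lower and kept their order in 11 of 11 libraries. Muc15 averaged 210 TPM ± 53.2 and Plin3 20.6 ± 4.88 (SD, n = 11), and Muc1 lay between them at a mean of 64.2 TPM, with libraries from 52.7 to 80.2 TPM. On this scale the highest and the lowest member, both proteins of the droplet surface, were Cidea and Plin3.

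Within each protein family these genes had the highest mean levels of the relatives measured. Among the perilipins, Plin1, the coat of adipocyte droplets, had 8.93 TPM, and Plin4 and Plin5 had 0.252 and 0.223 TPM. Among the CIDE proteins, Cidec, which enlarges droplets in fat cells, had 25.4 TPM and Cideb 0.445 TPM. The butyrophilin relative with the highest level was Btnl9 at 2.01 TPM, followed by Btn2a2 at 0.144 and Btnl4 at 0.141 TPM. Of the membrane mucins, Muc20 had 5.29 TPM and Muc4 0.0237 TPM.

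The genotype comparison asked whether the epithelial machinery of fat release differed in glands whose adipocytes were targeted for Tsc1 deletion. None of the 8 genes passed edgeR's threshold, which only 0.0550% of all genes tested passed. Muc15 was 1.3-fold higher on average in knockout glands and Cidea was lower, at 0.756 of the wild-type level, and these 2 were the members with an unadjusted p under 0.05, which 12.4% of all genes had. By DESeq2, Muc15 alone of the 8 passed (adjusted p = 0.0129), where 0.960% of all genes tested by it passed. The other 6 genes lay between 0.853 and 1.04 of the wild-type level.

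In log2 fold change, 2 members were higher and 6 lower with a median of -0.08, but with total counts as the only scaling Btn1a1, Xdh, Mfge8 and Muc1 turned to the higher side, and on the log2(TPM + 1) scale these 4 and Plin3 did. Over all genes tested 6146 were higher and 6570 lower, with a median of -0.01. That median moved to 0.18 with total counts and to 0.14 on the TPM scale. The differences of Btn1a1, Plin2, Xdh and Muc1 were smaller than these shifts, and those of Mfge8, Plin3, Muc15 and Cidea were larger. The TMM factors themselves differed between the groups, with means of 1.07 in knockout and 0.934 in wild-type libraries.

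**Figure D1:**
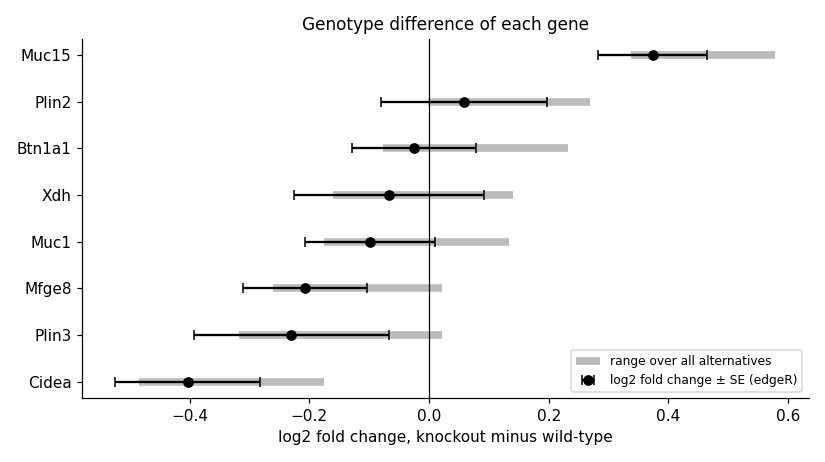
Log2 fold change of each gene, knockout minus wild-type, from edgeR (points, with SE bars) and the range over all 22 alternative settings (grey bars). Muc15 lies above 0 and Cidea below 0 over their whole ranges, while the grey bars of the other 6 genes reach or cross 0.

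Btn1a1 and Xdh, the apical membrane protein and its enzyme partner, were at like levels in both genotypes. Btn1a1 is a transmembrane member of the immunoglobulin superfamily, encoded on chromosome 13 (chr13:23456992-23465901, minus strand, GRCm38). It had 1392, 1518 and 1699 CPM as the lowest, median and highest knockout values and 1634, 1446, 1953, 1323 and 1479 CPM in wild-type libraries 1 to 5. The wild-type values spread over the whole knockout range. Its means were 1540 CPM ± 122 (SD, n = 6) and 1567 ± 243 (SD, n = 5), with a log2 difference of -0.03 ± 0.10 (SE) and an edgeR adjusted p of 0.944.

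Xdh, which oxidizes hypoxanthine and xanthine and also has a structural part in globule release, lies on chromosome 17 (chr17:73883895-73950196, minus strand). Its knockout values had a lowest of 1897, a median of 2605 and a highest of 3640 CPM, and the wild-type values were 3037, 2389, 3412, 2844 and 2813 CPM. The knockout libraries held both the lowest and the highest value, and the wild-type libraries lay inside that range. The means were 2768 CPM ± 660 and 2899 ± 372, with a log2 difference of -0.07 ± 0.16 (SE) and an edgeR adjusted p of 0.894.

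Most Xdh reads came from the full transcript Xdh-201, and a short one, Xdh-208, held 6.84% of them. Per length the short one weighed more, since it is listed with 1230 bases against 4008: Xdh-201 made up 72.0% of the gene's TPM in knockout glands and 71.0% in the wild type, on average. The annotation gives Xdh-208 12 coding exons against 36 in Xdh-201. It shares 11 of them and has 1 of its own, of 51 bases (chr17:73898637-73898687). Xdh-201 held 93.8% ± 0.837 (SD, n = 6) of the gene's reads in knockout glands against 92.4% ± 1.81 (SD, n = 5) in the wild type. The shares overlapped (exact two-sided permutation p = 0.126; 0.891 adjusted over the 4321 genes with a share to test). Their difference of 1.36 points was 0.815 without wild-type library 2 (exact permutation p = 0.276) and 1.87 without wild-type library 3 (exact permutation p = 0.0381).

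None of the 3 droplet surface proteins passed edgeR's threshold, and Cidea had the largest difference among them. Plin2, or adipophilin, is the main perilipin of the milk lipid droplet and lies on chromosome 4 (chr4:86648386-86670060, minus strand). Knockout values were 900, 1333 and 1483 CPM as lowest, median and highest, and wild-type values were 1396, 1008, 1172, 1227 and 1227 CPM. Knockout libraries 1 and 5, at 900 and 1012 CPM, stood below the other 4, which lay between 1315 and 1483 CPM. The means were 1256 CPM ± 244 and 1206 ± 139, and the log2 fold change, with its SE, was 0.06 ± 0.14 (edgeR adjusted p = 0.894).

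Plin3, a perilipin that moves between cytosol and new droplets, is on chromosome 17 (chr17:56277476-56292873, minus strand). It had 44.5, 58.1 and 76.1 CPM as the lowest, median and highest knockout values and 84.1, 56.8, 61.1, 89.3 and 51.7 CPM in the wild-type libraries. Wild-type libraries 1 and 4 exceeded every knockout library and the other 3 lay among them. The log2 fold change, with its SE, was -0.23 ± 0.16 (edgeR adjusted p = 0.591), and without wild-type library 4 it was -0.11.

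Cidea, which in the mammary gland takes part in droplet enlargement and milk lipid secretion, lies on chromosome 18 (chr18:67343604-67367785, plus strand). Its lowest, median and highest knockout values were 1432, 1863 and 2053 CPM, and its wild-type values were 2559, 2420, 2662, 1802 and 2473 CPM. Of the wild-type libraries 4 exceeded every knockout library, and wild-type library 4 lay below the knockout median. The means were 1803 CPM ± 241 (SD, n = 6) and 2383 ± 338 (SD, n = 5). The log2 difference was -0.40 ± 0.12 (SE), with an edgeR p of 0.00566, an adjusted p of 0.274 and a DESeq2 adjusted p of 0.0907.

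In 0.535% of all genes tested every knockout CPM was below every wild-type CPM, a separation that Cidea missed through wild-type library 4. As TPM its means were 1950 ± 115 and 2201 ± 109 with overlapping values, and such separation was found in 0.0393% of genes on that scale. The difference of Cidea on the log2(TPM + 1) scale was -0.18, where the median of all genes was 0.14, and with total counts it was -0.21, where that median was 0.18.

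Cidea is also known as a gene of thermogenic fat. The 6 markers of thermogenic adipocytes used here, Ucp1 among them, summed to 1.43 to 3.38 CPM in the knockout group and 1.23 to 3.30 CPM in the wild type, and each of the 6 averaged less than 1 CPM in both groups. Mean levels of Ucp1 and Elovl3 were lower in knockout glands and those of Cox8b, Cox7a1, Dio2 and Ppargc1a higher, and neither of those tested by edgeR, Cox8b (adjusted p = 0.269) and Elovl3 (adjusted p = 0.865), passed. The summed secretory markers were lowest in knockout library 1 within its group, at 341380 CPM, and in wild-type library 4 within its own, at 422876 CPM. These were also the 2 libraries with the lowest Cidea of their groups. All 6 secretory markers were on the lower side in knockout glands with TMM scaling, at a median log2 fold change of -0.26, but 5 with total counts and 4 on the log2(TPM + 1) scale. None passed by edgeR or DESeq2 or had an unadjusted edgeR p under 0.05, and their part in the Cidea difference was not tested.

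**Figure D2:**
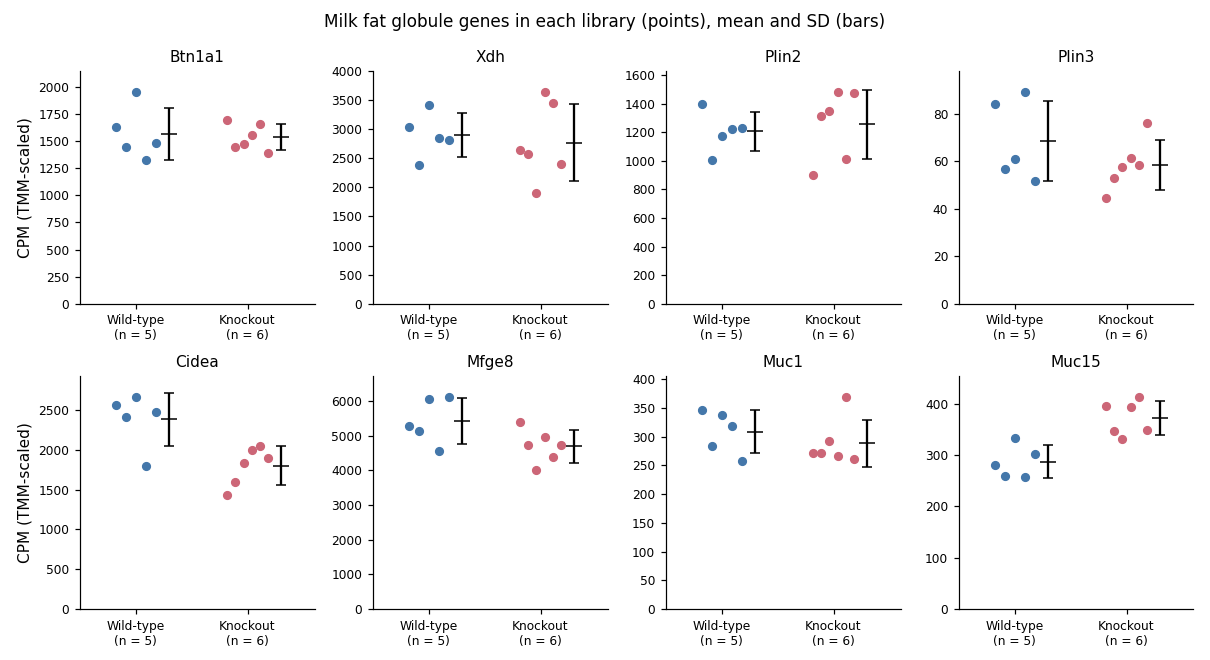
CPM after TMM scaling for each gene, 1 point per library, with the mean and SD of each genotype beside the points (wild-type n = 5, knockout n = 6) and all axes from 0. Muc15 and Cidea show the clearest offset between genotypes, each with 1 wild-type library inside the knockout range, and the other genes overlap widely.

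Of the 3 genes of the outer membrane, Muc15 was higher in knockout glands, Muc1 differed little and Mfge8 was lower on average, none past edgeR's threshold. Muc15 is a heavily glycosylated transmembrane mucin, first known from milk fat globules, on chromosome 2 (chr2:110721340-110739527, plus strand). Knockout libraries 1 to 6 had 396, 348, 331, 394, 413 and 349 CPM. Wild-type libraries 1 to 5 had 282, 258, 334, 257 and 303 CPM. The 2 groups overlapped only through knockout library 3 and wild-type library 3, which differed by less than 3 CPM. The means were 372 CPM ± 33.3 (SD, n = 6) and 287 ± 32.3 (SD, n = 5), on 6188 to 17838 reads per library.

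The log2 fold change of Muc15 was 0.37 ± 0.09 (SE), with an edgeR p of 0.00132 that ranked 76 among the genes tested and an adjusted p of 0.218. DESeq2 gave the same size, 0.38, with an adjusted p of 0.0129, so that the call depended on the tool. As TPM every knockout library, at 205 to 322, exceeded every wild-type library, at 143 to 183, and 1.62% of all genes tested were separated in that direction on that scale. Separation in that direction in CPM, which Muc15 missed, was found in 0.786% of genes. Markers of several cell types were on the higher side in knockout glands too. They were 8 of 9 adipocyte, 7 of 7 luminal, 5 of 5 fibroblast and 5 of 5 myoepithelial markers, with median log2 fold changes of 0.35, 0.41, 0.35 and 0.21. By edgeR 0 of them passed, with 5, 2, 2 and 1 at an unadjusted p under 0.05, which 12.4% of all genes had. By DESeq2 2 adipocyte markers and none of the other 3 lists passed, against 0.960% of all genes. On the lower side were 5 of 5 tested B cell and 4 of 4 tested T cell markers, at medians of -2.92 and -1.24, while macrophage markers, 2 higher and 3 lower, had -0.05. Of these 3 lists 5, 0 and 1 markers had an unadjusted edgeR p under 0.05, and none passed by edgeR or DESeq2. The B and T cell sums were highest in wild-type libraries 2 and 5, at 62.1 and 82.9 CPM and at 8.77 and 15.8 CPM. In wild-type library 4 they were 18.4 and 4.46 CPM, and wild-type libraries 1 and 3 lay within the knockout range. The 5 skeletal muscle markers had a median of 2.30 that rested on knockout library 1, and the group medians of their sum were close, at 20.2 CPM in knockout and 18.3 in wild-type samples. Summed fibroblast markers overlapped, at 136 to 314 CPM in the knockout group and 121 to 224 CPM in the wild type. The part of these markers in the Muc15 difference was not tested.

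Muc15 reads fell on 2 annotated coding transcripts that differ in where the last coding exon begins. Muc15-203 starts that exon 55 bases further on than Muc15-202, at chr2:110737402 in place of chr2:110737347, and ends its coding sequence earlier, after 20 bases in place of 161. The junctions are printed to show where the 2 sequences part. The last coding exon of Muc15-202 also covers bases past the coding end of Muc15-203, so the assignment of reads does not rest on the junction alone. Lower case marks the 15 bases before the junction, which both share, and capitals the first 15 bases of the last coding exon, from the GRCm38 sequence with the GENCODE M21 annotation.
Muc15-202: acagaaacgaaccagTTCTGCGATTAGACA
Muc15-203: acagaaacgaaccagTTACTACAACCCAGC
Muc15-202 held 94.7% ± 0.419 (SD, n = 6) of the reads in knockout glands against 94.9% ± 0.648 (SD, n = 5) in the wild type. The share overlapped between genotypes (exact two-sided permutation p = 0.602; adjusted 0.993), and the mean was higher in knockout glands for both transcripts, at 352 against 272 CPM for the first and 19.6 against 14.8 CPM for the second.

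Muc1, the transmembrane mucin of the apical surface, is on chromosome 3 (chr3:89229057-89233381, plus strand). Its knockout values were 261, 272 and 368 CPM as lowest, median and highest, and its wild-type values 347, 284, 337, 319 and 257 CPM. Knockout library 5, at 368 CPM, was the highest of all, and the other knockout libraries lay between 261 and 292 CPM. The log2 fold change, with its SE, was -0.10 ± 0.11 (edgeR adjusted p = 0.749). Against Muc15, the other mucin of the globule, its levels across the 11 libraries had a Pearson correlation of -0.08 in log2 CPM.

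Mfge8, or lactadherin, is a secreted protein that binds phosphatidylserine and integrins and was named for the milk fat globule. It lies on chromosome 7 (chr7:79133768-79149060, minus strand). Its knockout values were 4000, 4731 and 5392 CPM as lowest, median and highest, and its wild-type values 5292, 5126, 6052, 4553 and 6113 CPM. Wild-type libraries 3 and 5 exceeded every knockout library and wild-type library 4 lay among the lower ones. The means were 4703 CPM ± 477 (SD, n = 6) and 5427 ± 658 (SD, n = 5). The log2 difference was -0.21 ± 0.10 (SE), with an edgeR p of 0.0681 and an adjusted p of 0.440. With total counts as the only scaling it was 0.00117.

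Mfge8 is made in a long and a short form. The mammary gland is known for the long form, which carries a stretch rich in proline and threonine between its EGF-like and its discoidin-like domains. In the annotation the long transcript, Mfge8-201, has 10 coding exons and the short one, Mfge8-202, has 9. Coding exon 4 is the one left out (chr7:79143278-79143388, minus strand, GRCm38 with GENCODE M21). It is 111 bases long, a whole number of codons, so that the reading frame continues without it. Of its 36 complete codons, 5 have the form CCN and 6 the form ACN, the codons of proline and threonine. The exon is printed in capitals with 15 coding bases on each side in lower case, as the sequence that separates the 2 forms.
Mfge8-201: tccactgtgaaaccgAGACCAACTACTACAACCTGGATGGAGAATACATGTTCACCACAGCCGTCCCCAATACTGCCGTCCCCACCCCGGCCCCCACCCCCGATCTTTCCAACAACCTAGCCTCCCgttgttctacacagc
Mfge8-202: tccactgtgaaaccggttgttctacacagc

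The long transcript held most Mfge8 reads in every library. Its share in knockout libraries 1 to 6 was 85.6%, 83.5%, 83.9%, 88.3%, 83.4% and 84.6%. In wild-type libraries 1 to 5 it was 85.2%, 77.5%, 82.0%, 83.0% and 81.5%. All 6 knockout libraries exceeded 4 of the 5 wild-type libraries, and wild-type library 1 lay among the knockout values. The means were 84.9% ± 1.88 (SD, n = 6) and 81.8% ± 2.80 (SD, n = 5), 3.04 percentage points apart.

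The difference in share had an exact two-sided permutation p of 0.0476, which became 0.798 when adjusted over the 4321 genes with such a share, and so did not pass. An unadjusted p under 0.05 was found in 5.97% of these genes and an adjusted one in 0 of them. Without wild-type library 2, which had the lowest share, the difference was 1.96 points (exact permutation p = 0.105). In CPM the long transcript averaged 3996 ± 460 in knockout glands against 4441 ± 554 in the wild type, and the short one 707 ± 79.7 and 986 ± 190. Wild-type libraries 2, 3 and 5 had 1153, 1091 and 1130 CPM of the short transcript, above every knockout library, and wild-type libraries 1 and 4 had 783 and 776 CPM, close to the highest knockout values of 778 and 781. Summed markers of B cells, T cells and macrophages were highest in wild-type libraries 5 and 2 as well. In wild-type library 3 they were low, at 4.46, 1.26 and 43.8 CPM. Their part in the transcript share was not tested.

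**Figure D3:**
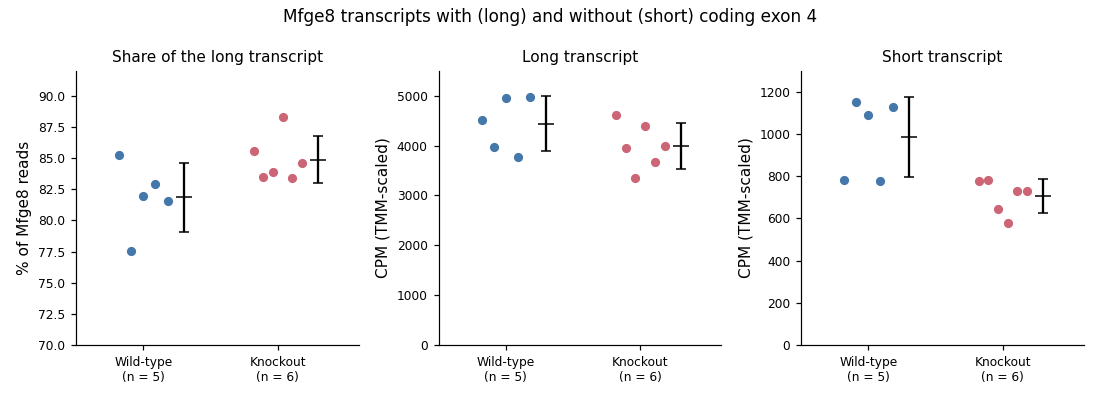
Share of Mfge8 reads assigned to the long transcript (left, percent, axis from 70), and CPM of the long (middle) and the short transcript (right), 1 point per library with mean and SD by genotype. The knockout shares lie between 83.4% and 88.3%, above all wild-type libraries except 1 at 85.2%.

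Because the scaling of libraries bears on these genes, each was also set against Btn1a1 in the same library, as the log2 ratio of estimated reads, which needs no scaling. Muc15 was higher and Cidea lower relative to Btn1a1 in knockout glands, without overlap between the groups in reads, though for Cidea they overlapped in TPM. The ratios share Btn1a1 as denominator and are not independent of each other. All 7 ratios were compared, and their p-values were adjusted over the same ratio of all 12582 genes, among which none passed.

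For Muc15 the log2 ratio had a lowest of -2.16, a median of -2.03 and a highest of -1.98 in knockout libraries, and lay between -2.55 and -2.29 in wild-type libraries. The means were -2.05 ± 0.07 (SD, n = 6) and -2.44 ± 0.11 (SD, n = 5), a difference of 0.39. The exact two-sided permutation p was 0.00433, the smallest that 6 against 5 libraries can give, and 0.746 after adjustment over all genes. In 0.374% of genes every knockout ratio was above every wild-type ratio.

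For Cidea the log2 ratio was -0.25, 0.31 and 0.44 as lowest, median and highest in knockout libraries and between 0.45 and 0.74 in wild-type libraries. The groups nearly touched, with knockout library 6 less than 0.01 from wild-type libraries 3 and 4. With the ratio taken from TPM they overlapped through knockout library 6 and wild-type library 3 (difference -0.41, exact permutation p = 0.00866). The means were 0.22 ± 0.25 (SD, n = 6) and 0.60 ± 0.15 (SD, n = 5), a difference of -0.39 (exact two-sided permutation p = 0.00433, adjusted 0.746). In 0.207% of genes every knockout ratio was below every wild-type ratio.

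The other 5 ratios overlapped between genotypes. Mfge8 to Btn1a1 differed by -0.19 (exact permutation p = 0.0823, adjusted 0.864), and by -0.12 without wild-type library 5 (exact permutation p = 0.181) and -0.23 without wild-type library 3 (exact permutation p = 0.0286). Plin3 to Btn1a1 differed by -0.20 (exact permutation p = 0.446), and by -0.036 without wild-type library 4. Xdh, Plin2 and Muc1 differed by -0.08, 0.06 and -0.08 (exact permutation p = 0.641, 0.788 and 0.455), and the Muc1 ratio by -0.0121 without wild-type library 4. Over all genes, 5.52% had an unadjusted p under 0.05 for this ratio.

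**Figure D4:**
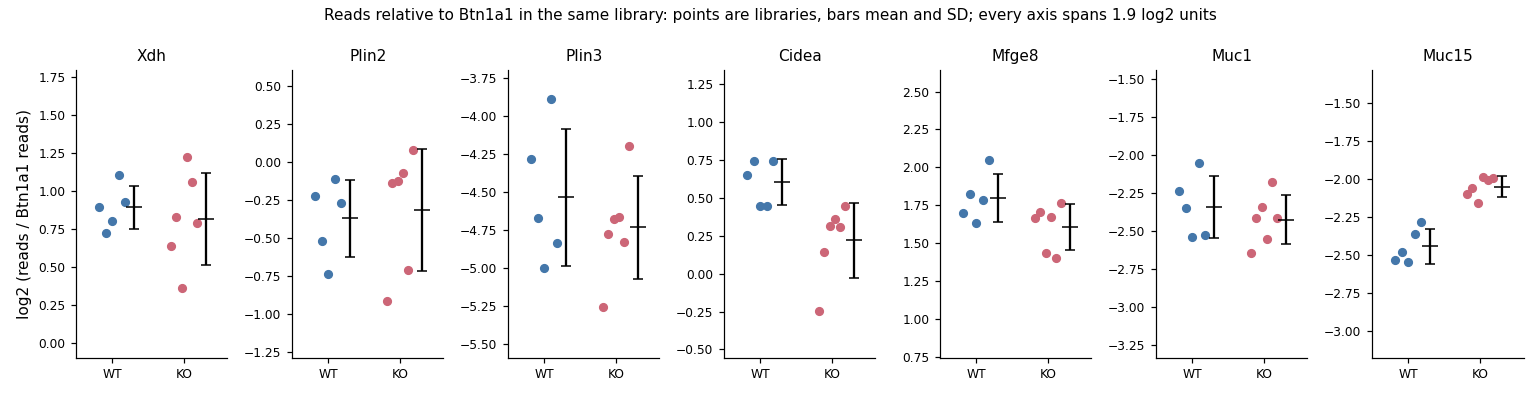
Log2 ratio of the reads of each gene to those of Btn1a1 in the same library, 1 point per library, mean and SD by genotype (WT, wild-type, n = 5; KO, knockout, n = 6), every axis spanning the same range of 1.9 log2 units. For Muc15 all knockout points lie above all wild-type points and for Cidea all lie below, the latter by less than 0.01 at the closest, while the other 5 genes overlap.

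The genes around these 8 gave no call by edgeR in any of 9 lists, against 0.0550% of all genes. DESeq2 called 4 of them, against 0.960% of all genes. They were Plin4 among 5 perilipin and CIDE relatives, Gas6 and Timd4 among 8 tested clearance genes, and Fitm2 among 7 tested genes of triglyceride supply. An unadjusted edgeR p under 0.05, which 12.4% of all genes had, was found for 4 of these 8, 3 of these 7 and 2 of these 5 genes. It was also found for 2 of 7 regulators, 1 of 3 tested butyrophilin relatives and 1 of 12 other globule proteins, and in none of the other lists. Of the perilipin and CIDE relatives 5 of 5 were tested, with a median log2 fold change of 0.22 and 4 on the higher side. Plin4 had 3.85 CPM ± 1.42 in knockout glands against 1.53 ± 0.820 in the wild type, a log2 difference of 1.33 ± 0.36 (SE) with adjusted p of 0.250 by edgeR and 0.0257 by DESeq2, and Cidec had 35.6 ± 6.32 and 26.0 ± 4.44 CPM (edgeR adjusted p = 0.274). Both are adipocyte droplet genes. Plin1 and Cidec are among the adipocyte markers whose sum was higher in every knockout library, but most of that sum was Cfd. In knockout glands Plin1 and Cidec averaged 26.9 and 35.6 CPM of a mean sum of 1443 CPM, and each overlapped between the groups. The part of adipocytes in the Plin4 and Cidec differences was not tested. Of the butyrophilin relatives 3 of 7 and of the mucins 2 of 5 had enough reads to be tested, the former led by Btn2a2 at 1.00 ± 0.36 (edgeR adjusted p = 0.316) on less than 1 CPM.

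Of 12 other proteins found in the globule membrane 4 were higher and 8 lower, with a median of -0.08, but 10 were higher with total counts, at a median of 0.12 against 0.18 for all genes. Cd9, a tetraspanin, had a log2 fold change of 0.33 ± 0.11 (edgeR adjusted p = 0.306), and Anxa5, which binds phosphatidylserine, one of -0.17 ± 0.09 (edgeR adjusted p = 0.483). Genes of the molybdenum cofactor and of purine breakdown, which Xdh depends on or works beside, had a median of -0.04 over 11 tested, and of 0.16 with total counts. The smallest p-values among them belonged to Mocs1, of cofactor synthesis, at -0.27, and to Aox1, a related oxidase, at 0.27 (both edgeR adjusted p = 0.495). SNAREs and Rabs of the secretory cell, 7 of 8 tested, had a median of -0.07, which was 0.12 with total counts, and Rab3d and Vamp4 had -0.17 and -0.14 (edgeR adjusted p = 0.534 and 0.633).

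Among 8 tested genes of the Mfge8 receptors and of clearance of dying cells, Gas6 had the smallest p. Gas6 encodes a bridging ligand that binds phosphatidylserine and the receptors Axl and Mertk. Its lowest, median and highest values were 26.3, 34.4 and 41.3 CPM in knockout libraries, and the wild-type libraries lay between 19.0 and 24.7 CPM, without overlap. In 0.786% of all genes tested every knockout CPM was above every wild-type CPM, and Gas6 was named for its small p. The log2 fold change of Gas6, with its SE, was 0.64 ± 0.12 (edgeR adjusted p = 0.0967, DESeq2 adjusted p = 0.000169), so that Gas6 passed with DESeq2 and not with edgeR. Timd4, a phosphatidylserine receptor, had at most 84 reads in a library and a log2 fold change of -3.52 ± 0.91 (edgeR adjusted p = 0.230, DESeq2 0.0103).

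Of the genes that supply triglyceride to the droplet 7 were tested, 2 higher and 5 lower, with a median of -0.20, and 3 higher and 4 lower with total counts, at a median of -0.00386. Fitm2, a protein of the endoplasmic reticulum needed for droplet formation, had 4.41 CPM ± 0.430 in knockout glands against 3.21 ± 0.274 in the wild type, without overlap (log2 difference 0.46 ± 0.11; edgeR adjusted p = 0.218, DESeq2 0.0447). Separation in that direction in CPM was found in 0.786% of all genes tested, and Fitm2 was named for its small p. Lpin1, a phosphatidate phosphatase, had a log2 fold change of -0.56 ± 0.21 (edgeR adjusted p = 0.341). Of 7 regulators of milk secretion genes, with a median of -0.07 that was 0.10 with total counts, Esrra had -0.45 and Stat5a 0.43 (edgeR adjusted p = 0.363 and 0.379).

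Across the 11 libraries the 8 genes varied largely apart from each other. In log2 CPM the Pearson correlations of their 28 combinations ran from -0.50, between Plin3 and Muc15, to 0.54, between Plin2 and Plin3, as a description over libraries that share their scaling. Cidea and Mfge8 had 0.51, Btn1a1 and Xdh 0.52, and Cidea and Muc15 -0.43. The gene most like Cidea was Lao1, which encodes an L-amino acid oxidase of milk, at 0.95, and Lmf1 and Aup1 followed at 0.94 and 0.93. Those most like Muc15 were Stk38l at 0.92, Dcun1d4 at 0.91 and Ddx3x at 0.89. These correlations run over both genotypes together, so that a difference between the groups enters them. The log2 fold changes of the 3 genes near Muc15 were 0.38, 0.63 and 0.40, on the same side as that of Muc15, and those of Lao1, Lmf1 and Aup1 were -0.55, -0.15 and -0.17, on the side of Cidea. Btn1a1 was most like Heatr5b, Casd1 and Fech, at 0.93, 0.91 and 0.89, and Xdh like Zfp729b, Dnmt3a and Mtrr, at 0.91, 0.89 and 0.87. Plin2 was most like Rnf130, Csdc2 and Dpp4, at 0.93, 0.91 and 0.91, and Plin3 like Osbpl5, Fbxo31 and Snrk, at 0.95, 0.94 and 0.94. The closest to Mfge8 were Glra4, Fancb and Rpl38, at 0.90, 0.87 and 0.86, and to Muc1 Gpd1l, Setd1b and Otud3, at 0.91, 0.90 and 0.87.

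No 31-base word of the annotated coding sequences of these 8 genes occurred in that of another gene, and no coding sequence of the opposite strand overlapped theirs. RefSeq promoter windows of 300 bases, 250 before to 50 after the start in GRCm38.p6, were at hand for 4 of the genes, Plin2, Plin3, Mfge8 and Muc1. They were searched on both strands for TTCNNNGAA, the core of the STAT motif, TTGCNNAA, a C/EBP-type motif, and TATAAA. The only match was TATAAA in the Muc1 window, on the forward strand. Of all 32851 promoter windows, 8.3% held the first motif, 10.8% the second and 13.6% the third.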

How the data were processed

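Inguinal mammary gland RNA of 6 knockout and 5 wild-type samples was grouped and numbered by sample titles. The libraries were made with a directional kit per the labels' protocols. Salmon 1.3.0, DESeq2 1.28.1 and the build GRCm38.p6 are named in the submitters' processing notes. The deposited tables give, per the file headers, an estimated count, a TPM and an effective length in bases for each of 58204 transcripts. In 94.3% of 56929 transcripts the listed length was within 3 bases above the annotated coding length, so TPM is per coding length. The authors' table of normalized counts for 22379 genes was used as a signal on the authors' scale, in 1 alternative.

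Estimated counts were summed to genes through GENCODE M21 and rounded. Of the transcripts 752 were unmatched, with 0.195% to 0.265% of the reads, and were left out. Genes with low counts were removed (filterByExpr), at most 0.0698% of the reads. The test was edgeR 4.0.16's quasi-likelihood F test (R 4.3.3), robust, with TMM scaling, no term besides genotype, and p-values adjusted by Benjamini-Hochberg over 12716 genes, at 0.05. The common biological coefficient of variation was 24.1%. Ratios and transcript shares were compared by exact permutation, two-sided, of the genotype labels over every split, and a share was tested where 2 transcripts each held at least 5% of a gene's reads. The p-values of ratios and shares were to be adjusted over the 7 ratios and over the genes with a share among the 8. After those values had been seen this was replaced by adjustment over all genes, which none passes, while the Muc15 and Cidea ratios would have passed the former. Scripts were tested on simulated data.

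Alternatives were DESeq2 1.42.0, other scalings, milk protein genes removed, other filters, length offsets, limma 3.58.1 on log2(TPM + 1) and on log2(value + 1) of the authors' table, a replicate block and leaving out each library. The genes and lists were chosen with earlier results of these data known. Named were the 8 genes, Tsc1, the 3 genes most correlated with each of the 8, and from each list the genes past the threshold or otherwise the 2 with the smallest p. Plin1, Plin5, Cideb and Btnl9 were named as relatives, for their levels, and the single markers named (Csn2, Wap, Cfd, Lep and the 6 thermogenic ones) were chosen outside this rule, with values seen. No library was a copy of another: those of 1 genotype differed beyond sampling noise (chi-square per degree of freedom 21.9 to 96.0 over 25 combinations), which does not show that they came from separate animals. Counting error is small at this depth and is only part of the error.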

Additional observations from a re-analysis of the deposited data

Results flagged for a closer look

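In 36 sets of values, the 8 genes' CPM, the ratios and the transcript shares in each genotype, 2 held a library that stood far from the rest of its group. Chance gives about 1 in 20 sets, or 1.8 here. Muc1 had 368 CPM in knockout library 5, where the other 5 knockout libraries lay between 261 and 292 CPM. Without that library the log2 fold change of Muc1 was -0.18 (edgeR adjusted p = 0.444). Cidea had 1802 CPM in wild-type library 4, where the other 4 lay between 2420 and 2662 CPM. Without it the log2 fold change of Cidea was -0.48 (edgeR adjusted p = 0.148). Wild-type library 4 also had the lowest sum of secretory markers in its group, at 422876 CPM.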

How the results depend on the processing

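Over 22 alternative settings, 160 of the 176 log2 fold changes of the 8 genes kept their sign and 16 turned. Muc15 (0.34 to 0.58) and Cidea (-0.48 to -0.18) kept theirs in all 22. Adjusted p ran from 0.0129 to 0.571 for Muc15 and from 0.0907 to 0.580 for Cidea, and only Muc15 with DESeq2 (0.38) passed, which makes 1 of the 8 genes past the threshold in place of 0. Genes past the threshold numbered 7 by edgeR, 135 by DESeq2 and 3 on log2(TPM + 1), and 0 to 28 on leaving out single libraries. They numbered 0 without knockout 3 or 6, 2 without knockout 1 or wild-type 3, 28 without knockout 2, 13 without wild-type 1 or 5 and 14 without wild-type 4. The causes were not tested. Signs turned with total counts for Btn1a1 (0.18), Xdh (0.12), Mfge8 (0.00117) and Muc1 (0.0926). They turned on log2(TPM + 1) for Btn1a1 (0.23), Xdh (0.14), Plin3 (0.0215), Mfge8 (0.021) and Muc1 (0.13), and with the authors' values for Btn1a1 (0.00493). On leaving out a library Btn1a1 ran from -0.0768 to 0.0661, Xdh from -0.161 to 0.0214, Plin3 from -0.317 to -0.113 and Plin2 from -0.000436 to 0.14. Muc1 ran from -0.176 to -0.0532 in the same way. The ratios to Btn1a1 ran from -0.157 to 0.015 for Xdh, from -0.313 to -0.036 for Plin3, from -0.229 to -0.125 for Mfge8, from -0.134 to -0.0121 for Muc1 and from -0.0336 to 0.178 for Plin2, the Muc15 share difference from -0.32 to 0.10 points and that of Xdh from 0.815 to 1.87 points.

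The labels do not say that equal replicate numbers share a litter, cage or day, so the numbers were not taken as pairs. Same-numbered libraries also did not deviate together (correlations -0.22 to 0.19). With the replicate block over 10 libraries 0 genes passed with edgeR, 1023 at an unadjusted p under 0.05. Under the block Btn1a1 turned to 0.0194, Plin2 to -0.0014 and the Plin2 ratio to -0.0217, and with 5 numbers the exact sign-flip p of a ratio cannot go below 0.0625. Depth limits no member, each with at least 1360 reads per library.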
